A study of Mus musculus with 6 samples.

Results

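The insulin-like growth factor (IGF) genes measured in mouse soleus comprised 10 genes: the ligands Igf1 and Igf2, the receptors Igf1r and Igf2r, and the binding protein genes Igfbp2 to Igfbp7. They were taken by gene symbol from the normalized count table of 16247 genes and joined to the raw counts by Ensembl identifier. All 10 were found, and all 10 passed the filter on low counts, among 14696 genes tested of 51912 in the raw table.

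IGF1 and IGF2 are secreted growth factors that act through the receptor tyrosine kinase IGF1R, and in muscle IGF1 is known for driving protein synthesis and fiber growth. IGF2R carries no kinase and takes up IGF2 for breakdown in lysosomes, besides sorting lysosomal enzymes. The binding proteins are secreted and hold IGFs outside the cell, which can either keep a ligand from its receptor or carry and store it, and proteases release the ligand by cutting them.

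The comparison asked how soleus gene expression differed in mice with 1 disrupted copy of Mustn1, which encodes a small protein of muscle and vessel wall. Heterozygous Mustn1 KO-first mice (HET, n = 3) were set beside wild-type littermates (WT, n = 3), at an age of 8 weeks. All 6 mice had the C57BL6/N strain background, were labeled male, and received no treatment named in the labels. The KO-first allele is present in the whole body. Its inserted lacZ and neomycin cassette captures the transcript after exon 1 and is meant to abolish the product. One intact copy of Mustn1 remained in HET mice, and the neomycin cassette was present in HET mice alone. Whole soleus was used, so a value sums muscle fibers, fibroblasts, vessels and immune cells, and fewer cells of a type cannot be told apart from less RNA per cell.

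Each mouse gave 1 polyA RNA library, with 26790075 to 50368796 reads assigned to genes. The targeted gene Mustn1 had 471, 452 and 574 reads in HET mice and 691, 817 and 1504 in WT mice. In CPM (normalized counts relative to the library total, scaled by edgeR's TMM factors) it stood at 14.2 ± 2.33 in HET and 27.5 ± 3.89 in WT (SD, n = 3 each), a log2 fold change of −0.96 (SE 0.15, edgeR adjusted p = 0.0452). Slow fiber markers summed to 32158 to 36122 CPM in the 6 mice, and fast fiber markers to 32790 to 38852. The label male went against the reads, since Xist had 3858 to 9154 reads and 4 genes of the Y chromosome together had 0 to 12 in every mouse, in both genotypes alike. Of all genes tested, edgeR called 21 higher and 1 lower in HET at an adjusted p under 0.05.

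The binding proteins share an N-terminal domain rich in cysteines that binds IGFs, and Igfbp6 departs from the others within it. For each binding protein gene, 24 coding bases at or near the core of that domain are shown. The reason was that Igfbp6, whose level stood furthest apart between genotypes, has fewer cysteine codons over its whole coding sequence than the other 5. Sequences are from GRCm38 with the GENCODE M21 coding exons, written 5′ to 3′ on the coding strand, and capitals mark cysteine codons. They lie at chr1:72824778-72824801 (+) for Igfbp2, chr11:7213566-7213589 (−) for Igfbp3, chr11:99041650-99041673 (+) for Igfbp4, chr1:72873966-72873989 (−) for Igfbp5, chr15:102144710-102144733 (+) for Igfbp6 and chr5:77407826-77407849 (−) for Igfbp7. For Igfbp6 and Igfbp7 only the first codon was placed by alignment to Igfbp5, and the bases were read on from it without gaps.
Igfbp2: ggcTGCggcTGCTGCtccgtgTGC
Igfbp3: ggcTGCggcTGCTGCctgactTGC
Igfbp4: ggcTGCggtTGTTGCgccactTGC
Igfbp5: ggcTGTggcTGCTGCatgactTGC
Igfbp6: gcagacggcTGTacagaagccgga
Igfbp7: gcgTGCgggTGCTGCccggtgTGT
The run held 4 cysteine codons in Igfbp2, Igfbp3, Igfbp4, Igfbp5 and Igfbp7, and the stretch read for Igfbp6 held 1. The count for Igfbp6 depends on where its first codon was placed and leaves out any gap of the alignment within the run. It therefore does not give the number of cysteine codons at matching positions, and other placements were not tried. Over the whole coding sequence Igfbp6 had 16 cysteine codons and the other 5 had 18 to 20.

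Levels of different genes were compared per exon length, as CPM per kilobase (FPKM) over the exon length in the count table, with means over all 6 mice. Binding protein mRNAs led the order. Igfbp7 was highest at 75.7 ± 13.5 FPKM, followed by Igfbp5 at 46.6 ± 7.79 and Igfbp6 at 31.8 ± 13.0 (SD, n = 6). Igfbp7 was above Igfbp5 without overlap of their ranges, while the ranges of Igfbp5 and Igfbp6 overlapped, although Igfbp5 was the higher of the pair in 6 of 6 mice. Igf2r came next at 16.9 ± 0.655 FPKM and was the steadiest of the 10 genes. Its range overlapped that of Igfbp6, which was above Igf2r in 5 of 6 mice. Below Igf2r, and clear of it, Igf2 at 9.87 ± 1.34, Igfbp3 at 9.62 ± 1.95 and Igfbp4 at 7.84 ± 2.02 FPKM formed a run of neighbors whose ranges overlapped. Igf1 at 3.51 ± 1.02 FPKM was below each of them without overlap, and it was above Igf1r at 1.63 ± 0.231. Igf1r and Igfbp2 overlapped, with Igfbp2 last at 1.08 ± 0.246 FPKM. The exon length counts every annotated isoform, from 1112 bases for Igfbp6 to 16791 for Igf1r, so the order depends on it.

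**Figure D1:**
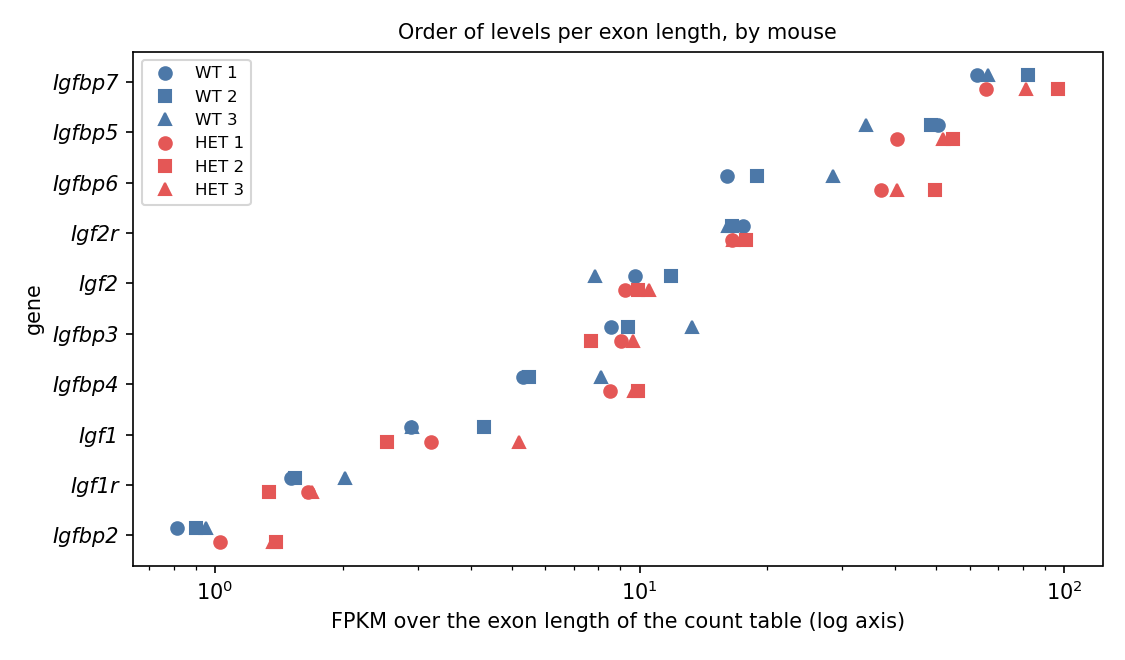
FPKM of the 10 genes in each mouse on a log axis, ordered by the mean over all 6 mice, with WT in blue, HET in red and the mouse number as the marker shape. Igfbp7 was highest and Igfbp2 lowest, and for Igfbp6, Igfbp4 and Igfbp2 all 3 HET points lie to the right of the WT points.

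None of the 10 genes passed an adjusted p of 0.05 in edgeR's quasi-likelihood test across all genes, against 0.15% of all genes tested. Igfbp2, Igfbp4 and Igfbp6 were at an unadjusted p under 0.05, all higher in HET, a direction and threshold that 5.76% of all genes met. The same 3 genes were those whose HET and WT values did not overlap, with every HET mouse above every WT mouse, as for 7.55% of all genes. DESeq2, run as an alternative, called Igfbp4 and Igfbp6 higher (adjusted p = 0.0447 and 0.000146), where it called 1.51% of all genes higher. The log2 fold change was above 0 for 8 of the 10 genes, as for 45.6% of all genes, and the median was 0.13, beside −0.02 over all genes tested. An exact permutation test of 3 mice against 3 cannot go below p = 0.1, the value it gave for Igfbp2, Igfbp4 and Igfbp6. EdgeR and DESeq2 weighed each difference against variation between mice, estimated in part from all genes, with 1 library per mouse.

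**Figure D2:**
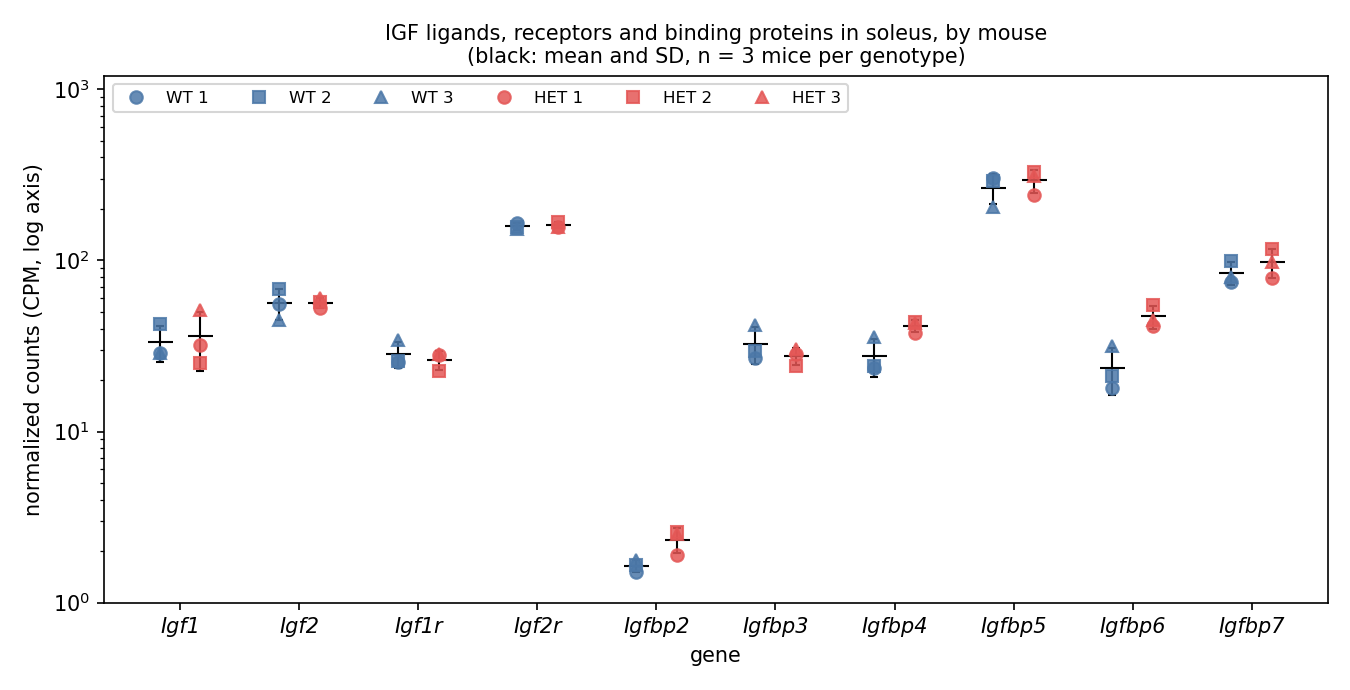
Normalized counts (CPM, log axis) of the 10 genes in each mouse, WT in blue and HET in red, with the mean and SD of 3 mice per genotype in black. Igfbp2, Igfbp4 and Igfbp6 had every HET mouse above every WT mouse, and the other 7 genes overlapped.

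Igf1 (ENSMUSG00000020053, chr10:87858265-87937042 in GRCm38, + strand), the ligand with the best known part in muscle growth, had 1198, 676 and 2260 reads in HET and 859, 1199 and 1420 in WT. That was 32.0, 25.2 and 51.5 CPM in HET mice 1 to 3 and 28.7, 42.5 and 28.8 CPM in WT mice 1 to 3. The highest and the lowest mouse were both HET, so the groups overlapped. Means were 36.2 ± 13.7 in HET and 33.3 ± 7.95 CPM in WT (SD, n = 3), with a log2 fold change of 0.13 (SE 0.28, edgeR adjusted p = 0.966). Igf1 was the most variable of the 10 genes among HET mice, with a coefficient of variation of 37.7%, and its fold change went to −0.21 without HET mouse 3.

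Igf2 (ENSMUSG00000048583, chr7:142650766-142666816, − strand), an imprinted gene best known as a fetal growth factor, was at 52.9, 56.9 and 60.2 CPM in HET and 56.0, 68.1 and 45.0 in WT. The HET mice lay inside the range of the WT mice. Mean levels were 56.7 ± 3.67 and 56.4 ± 11.5 CPM, with a log2 fold change of 0.01 (SE 0.14, edgeR adjusted p = 0.994), which went to −0.03 without HET mouse 3 and −0.13 without WT mouse 3. Per exon length Igf2 was above Igf1 in every mouse, by a ratio of 2.02 to 3.91 in HET and 2.71 to 3.37 in WT.

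Igf1r (ENSMUSG00000005533, chr7:67952827-68233668, + strand), the kinase through which both ligands act, was at 27.8, 22.5 and 28.3 CPM in HET and 25.4, 25.9 and 34.1 in WT. The groups overlapped, and the highest value belonged to WT mouse 3. The log2 fold change was −0.12 (SE 0.14, edgeR adjusted p = 0.922), or 0.035 without that mouse. Igf2r (ENSMUSG00000023830, chr17:12682406-12769664, − strand) was at 156, 168 and 157 CPM in HET and 166, 156 and 152 in WT. Its coefficient of variation was 4.16% in HET and 4.31% in WT, and the log2 fold change was 0.02 (SE 0.08, edgeR adjusted p = 0.977). Without WT mouse 3 it was −0.0028.

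Igfbp6 (ENSMUSG00000023046, chr15:102144362-102149511, + strand) encodes the binding protein that prefers IGF2 over IGF1. Reads were 1542, 1481 and 1972 in HET and 535, 594 and 1565 in WT. In CPM the HET mice had 41.2, 55.2 and 44.9, and the WT mice 17.9, 21.1 and 31.7. The groups did not overlap, and WT mouse 3 was the WT mouse nearest to HET. Mean levels were 47.1 ± 7.25 in HET and 23.6 ± 7.24 CPM in WT (SD, n = 3), a ratio of 1.99 and a log2 fold change of 0.99 (SE 0.21). The unadjusted p was 0.00113, rank 118 of all genes tested, and the edgeR adjusted p was 0.139. Across 16 alternatives the adjusted p ran from 7.64e-13 to 0.441 and the log2 fold change from 0.83 to 1.27. The lowest adjusted p came from edgeR without a filter on low counts, where 404 genes were called. Of the 16 alternatives, 4 gave an adjusted p under 0.05 for Igfbp6. Without WT mouse 3 the log2 fold change was 1.27 with an edgeR adjusted p of 0.00998, while leaving out any other mouse gave no call.

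Igfbp4 (ENSMUSG00000017493, chr11:99041244-99054392, + strand) encodes a binding protein that holds IGFs away from their receptor until the protease PAPP-A cuts it. Reads were 1405, 1177 and 1883 in HET and 701, 682 and 1767 in WT, which came to 37.5, 43.9 and 42.9 CPM and to 23.4, 24.2 and 35.8 CPM. The groups did not overlap, but WT mouse 3 was closer to the lowest HET mouse than to the other WT mice. Mean levels were 41.4 ± 3.41 and 27.8 ± 6.93 CPM (SD, n = 3), a ratio of 1.48 and a log2 fold change of 0.57 (SE 0.16, unadjusted p = 0.00492, edgeR adjusted p = 0.267). Over the 16 alternatives the log2 fold change was 0.46 to 0.80 and the adjusted p 0.000124 to 0.783. The lowest adjusted p was again from edgeR without a filter on low counts, and 3 of the 16 were under 0.05. Without WT mouse 3 the log2 fold change was 0.80 with an edgeR adjusted p of 0.0220.

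Igfbp2 (ENSMUSG00000039323, chr1:72824503-72852474, + strand), which encodes a binding protein made in many tissues, was the least abundant of the 10 genes and rested on few reads, 71, 69 and 111 in HET and 45, 47 and 87 in WT. Levels were 1.90, 2.57 and 2.53 CPM in HET and 1.51, 1.67 and 1.76 in WT. Again the groups did not overlap, with HET mouse 1 only slightly above the highest WT mouse. The log2 fold change was 0.50 (SE 0.22, unadjusted p = 0.0481, edgeR adjusted p = 0.638), and no alternative gave a call, with 0.433 as the lowest adjusted p.

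The promoters of Igfbp4 and Igfbp6 were searched because these genes stood furthest apart between genotypes. In RefSeq promoters (GRCm38.p6, 250 bases before to 50 after the start site), TATAAA on either strand occurred in 13.6% of 32851 promoters, and in 2 of the 14 promoters listed for the 10 genes, 1 of Igfbp4 and 1 of Igfbp6. The match lay 28 bases before the start of Igfbp4 (chr11:99041204-99041233, + strand) and, on the opposite strand, 148 bases before that of Igfbp6 (chr15:102144026-102144055, + strand shown). The RefSeq start site used for Igfbp6 lies upstream of the start of the counted gene at chr15:102144362. Capitals mark the match.
Igfbp4: ccagggggccggTATAAAgtcccgggagcc
Igfbp6: tctttcctagcgTTTATAcacatctctttc
The GC box core GGGCGG was in 6 of the 14 promoters and in 35.7% of all, and the E-box CACGTG in 2 of the 14 and in 7.15% of all. Promoters of Igfbp4 and Igfbp6 held neither. These matches describe letters in a window and do not show binding.

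Igfbp5 (ENSMUSG00000026185, chr1:72857932-72874884, − strand), which encodes the binding protein most often tied to muscle differentiation, lies tail to tail with Igfbp2 at a distance of 5.457 kb. It was at 242, 328 and 311 CPM in HET and 303, 292 and 205 in WT, so the groups overlapped and WT mouse 3 was lowest. The log2 fold change was 0.14 (SE 0.16, edgeR adjusted p = 0.917) with all mice and −0.017 without WT mouse 3. The values of Igfbp2 and Igfbp5 thus differed in whether the genotypes overlapped, which was not tested as a difference between the genes.

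Igfbp7 (ENSMUSG00000036256, chr5:77349240-77408041, − strand) encodes a secreted protein that binds IGFs weakly and is abundant in vessel walls. It was at 79.2, 117 and 98.1 CPM in HET and 75.2, 99.6 and 79.9 in WT, with overlap, and its log2 fold change was 0.21 (SE 0.15, edgeR adjusted p = 0.855). Igfbp3 (ENSMUSG00000020427, chr11:7206086-7213923, − strand), the main IGF carrier in blood, was at 28.4, 24.1 and 30.3 CPM in HET and 26.8, 29.4 and 41.7 in WT. It had the lowest fold change of the 10 genes, −0.25 on the log2 scale (SE 0.16, edgeR adjusted p = 0.833). WT mouse 3 had the highest level, and the value was −0.026 without it.

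**Figure D3:**
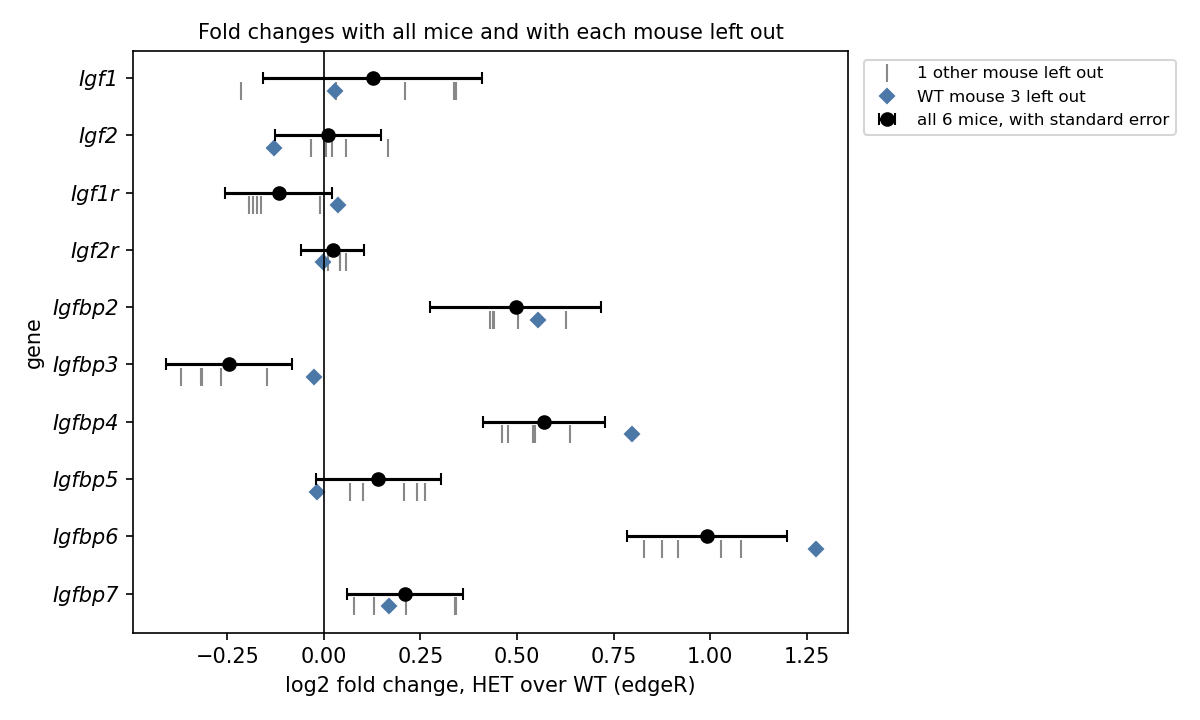
Log2 fold change of each gene, HET over WT, from edgeR with all 6 mice (black, bars are 1 standard error), without WT mouse 3 (blue diamonds) and without each other mouse (gray ticks). Igfbp6, Igfbp4 and Igfbp2 stayed above 0 in each, and Igfbp6 and Igfbp4 were highest without WT mouse 3, at 1.27 and 0.80.

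The makeup of the binding protein pool was described as each gene's share of the summed FPKM of Igfbp2 to Igfbp7, without a test. The sum was 161, 220 and 194 FPKM in HET and 143, 166 and 151 in WT. Igfbp6 made up 22.9%, 22.5% and 20.8% in HET and 11.2%, 11.4% and 18.9% in WT, so its share did not overlap between the genotypes. Igfbp3 had the opposite order, with 5.61%, 3.49% and 4.98% in HET and 5.98%, 5.67% and 8.82% in WT. A share of a fixed total is lower where another is higher, and the level of Igfbp3 itself overlapped between the genotypes. The share of Igfbp2 was 0.632% to 0.706% in HET and 0.545% to 0.631% in WT, without overlap by a small margin. That of Igfbp4 was 5.26%, 4.51% and 5.01% in HET and 3.70%, 3.31% and 5.36% in WT, with overlap. Igfbp7 held the largest share in every mouse, 40.6% to 44.0% in HET and 43.4% to 49.7% in WT, with overlap. Igfbp5 held 24.8% to 26.7% in HET and spread from 22.6% to 35.1% in WT. In FPKM, Igfbp6 stood at 0.919, 0.908 and 0.781 of Igfbp5 in HET and at 0.319, 0.390 and 0.834 in WT. WT mouse 3 lay within the HET range of that ratio, between the lowest and the highest HET mouse.

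**Figure D4:**
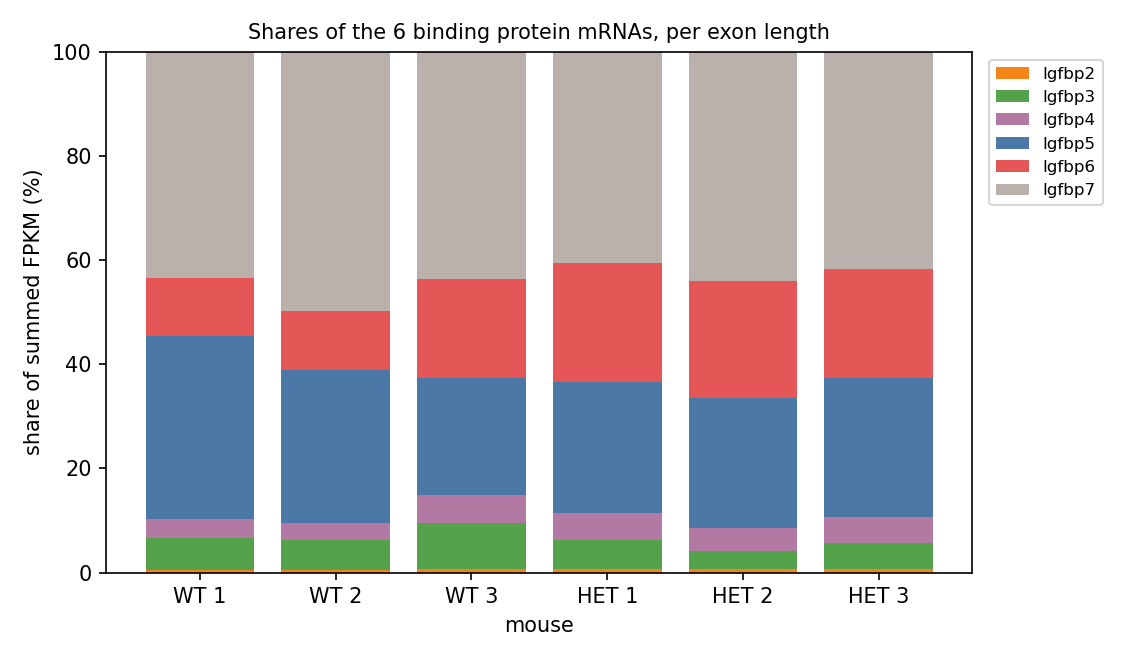
Share of each binding protein mRNA in the summed FPKM of Igfbp2 to Igfbp7, in percent, 1 stacked bar per mouse. The Igfbp6 share was 20.8% to 22.9% in the HET mice and 11.2% to 18.9% in the WT mice.

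The wider IGF pathway was read from further lists in the same edgeR fit. No gene of them passed an adjusted p of 0.05, against 0.15% of all genes tested. Of all genes, 45.6% were above 0, 5.76% were higher in HET at an unadjusted p under 0.05, and DESeq2 called 1.51% higher. Of 6 tested genes for other proteins that carry, cut or free IGFs outside the cell, 3 were above 0 and 3 below, 1 was at an unadjusted p under 0.05, and DESeq2 called none. That 1 gene was Htra1, a secreted protease that cuts binding proteins, at 20.5 ± 2.34 CPM in HET and 15.0 ± 0.464 in WT without overlap (log2 fold change 0.44, SE 0.11, edgeR adjusted p = 0.220). Stc1, which inhibits PAPP-A, had the lowest value of that list, −0.53 (SE 0.31, edgeR adjusted p = 0.804). Igfbp1, the liver binding protein, had 0 reads in all 6 mice. Of 8 tested genes for other proteins with an IGFBP-type domain, 7 were above 0, with a median of 0.35, and 3 were at an unadjusted p under 0.05. Ccn3, a matricellular protein, was highest at 10.8 ± 1.96 CPM in HET and 6.32 ± 0.533 in WT without overlap (log2 fold change 0.77, SE 0.16, edgeR adjusted p = 0.108), and it was the list's 1 call by DESeq2. Crim1 was lowest at −0.12.

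Inside the cell, the 30 genes of insulin and IGF signaling, from receptor substrates to AKT, mTOR and FOXO, had a median log2 fold change of −0.03, with 9 above 0 and 21 below. None was at an unadjusted p under 0.05 in edgeR and none was called by DESeq2, and the values ran from −0.23 for Pik3r1 to 0.13 for Pik3r2. The insulin receptor gene Insr, the relative of Igf1r, was at 170 ± 9.13 CPM in HET and 190 ± 10.3 in WT (log2 fold change −0.16, edgeR adjusted p = 0.745). Rheb, which activates mTORC1, was at 68.9 ± 0.906 and 74.2 ± 0.450 CPM (log2 fold change −0.11, edgeR adjusted p = 0.857). For Insr and Rheb alike, the highest HET value was under the lowest WT value, 2 of the 30 genes, where 6.02% of all genes tested had that order. The 6 genes of growth hormone signaling, which drives Igf1 in liver and muscle, had 3 above 0 and 3 below, from −0.18 for Stat5b to 0.30 for Cish. None was at an unadjusted p under 0.05 or called by DESeq2.

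The summed levels of fibroblast, tenocyte and macrophage markers, like Igfbp4 and Igfbp6, did not overlap between the genotypes, which was a description with no test of the lists. Of all genes tested, 45.6% were above 0 and 5.76% were higher in HET at an unadjusted p under 0.05. EdgeR called 0.15% of all genes in either direction, and DESeq2 called 1.51% higher. All 15 fibroblast markers had log2 fold changes above 0, with a median of 0.77, and 1 of them, Pi16, passed in edgeR (adjusted p = 0.0452). In edgeR 13 were at an unadjusted p under 0.05, and DESeq2 called 7. Their summed level was 2843, 3572 and 4014 CPM in HET and 1340, 1960 and 2194 in WT. By this sum WT mouse 3 was the WT mouse nearest to HET as well. That place rested on Gsn, at 261, 299 and 550 CPM in WT mice 1 to 3. Among WT mice Col3a1 was instead highest in WT mouse 2, at 260, 401 and 320 CPM. Of 10 tenocyte markers, 9 were above 0, with a median of 1.09 and no call in edgeR, 7 at an unadjusted p under 0.05, and 1, Kera, called by DESeq2. They summed to 393, 725 and 636 CPM in HET and 131, 289 and 319 in WT. All 15 macrophage markers were above 0, with 11 at an unadjusted p under 0.05 in edgeR and 7 called by DESeq2. EdgeR called 5 of them (Csf1r, Adgre1, C1qa, C1qb and Lyz2). Macrophage sums were 120 to 156 CPM in HET and 72.2 to 96.8 in WT. All 5 adipocyte markers were above 0, with sums of 70.0 to 222 CPM in HET and 24.6 to 97.1 in WT, which overlapped. Endothelial markers summed to 636 to 785 CPM in HET and 648 to 825 in WT, with 5 of 10 above 0. No marker in any of these lists was at 0 in all mice. The part of these cell types in the levels of Igfbp4 and Igfbp6 was not tested.

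**Figure D5:**
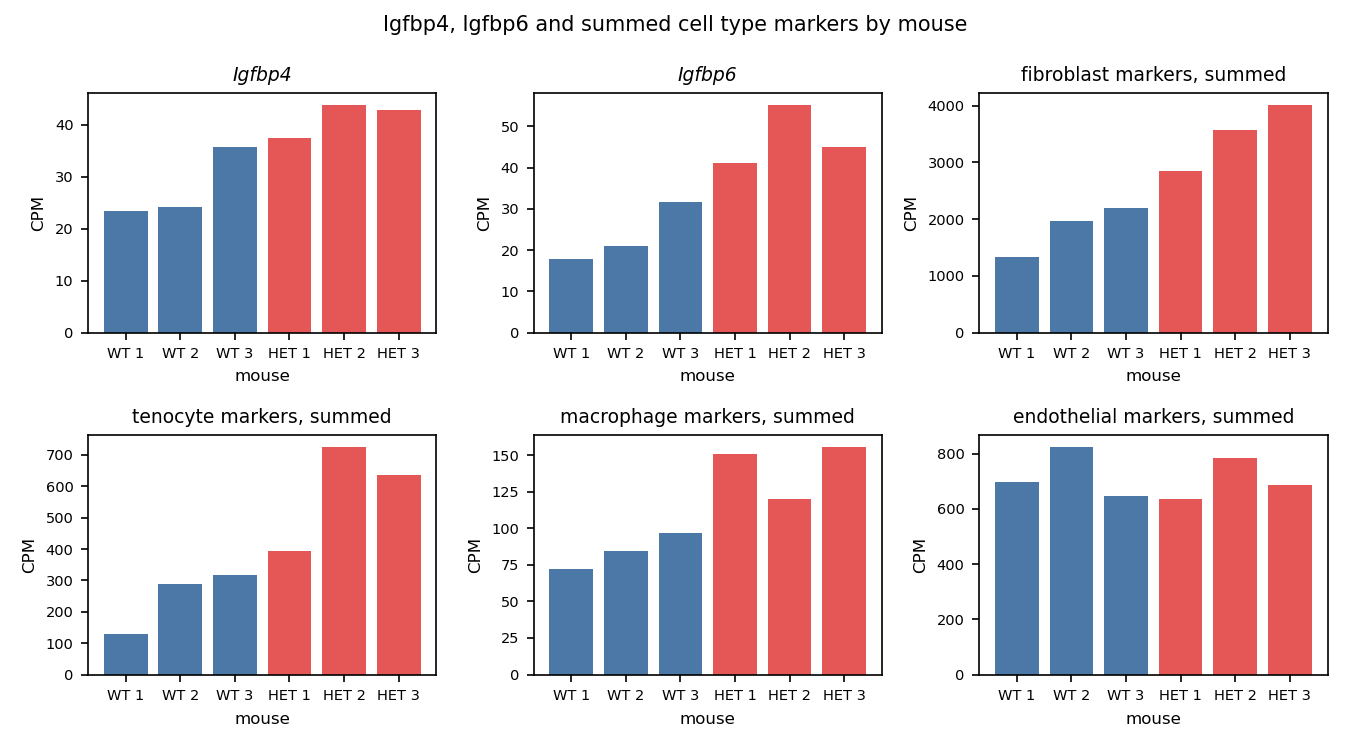
CPM of Igfbp4 and Igfbp6 and summed CPM of the fibroblast, tenocyte, macrophage and endothelial markers, 1 bar per mouse, WT in blue and HET in red. All HET bars exceed all WT bars in each panel except that of endothelial markers, where they overlapped.

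Of the remaining cell type lists, the summed level of every HET mouse was below that of every WT mouse for pericyte and satellite cell markers. Pericyte markers summed to 974 to 1142 CPM in HET and 1164 to 1280 in WT, and satellite cell markers to 89.4 to 100.6 and 100.9 to 110. No marker of either list was called in edgeR or DESeq2. Of 14696 genes tested, 294 were lower in HET at an unadjusted p under 0.05 in edgeR. So was 1 marker of each list. For pericytes that marker was Rgs5, at 574, 494 and 642 CPM in HET and 719, 760 and 666 in WT. The separation of the pericyte sum rested on Rgs5, and each other pericyte marker overlapped between genotypes. Of the 7 pericyte markers, 2 were above 0, and of the 5 satellite cell markers 1 was. The satellite cell sums were apart by a small margin. Sdc4, the most abundant marker of that list, overlapped between genotypes, at 55.2, 52.1 and 62.9 CPM in HET and 64.7, 60.6 and 68.1 in WT. Of the 5 satellite cell markers, 2 had every HET mouse below every WT mouse. The sums of the other lists overlapped. Fast fiber markers summed to 32790 to 37735 CPM in HET and 36802 to 38852 in WT, with 1 of 8 above 0. Of these 8 markers, 3 had every HET mouse below every WT mouse, an order that 6.02% of all genes tested had. At an unadjusted p under 0.05 in edgeR, 1 of the 8 was lower in HET. Of 6 slow fiber markers, 1 was above 0 and 1 had every HET mouse below every WT mouse. Vascular smooth muscle markers summed to 250 to 311 and 237 to 281 CPM, and Schwann cell markers to 47.1 to 72.0 and 40.5 to 78.5.

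The genes whose pattern over the 6 mice was most like that of Igfbp6 were found by the root mean square difference of log2 CPM, each gene centered on its own mean. They were Spon1 at 0.0861, Cbr2 at 0.0959 and Prelp at 0.105, where the spread of Igfbp6 itself was 0.584. Spon1, which encodes a matrix protein, was at 7.66 CPM in HET and 3.81 in WT (edgeR adjusted p = 0.105), and Prelp, a proteoglycan gene, at 42.7 and 23.1 CPM (edgeR adjusted p = 0.366). For Igf1, whose own spread was 0.359, the closest were Slfn9 at 0.0770, D430019H16Rik at 0.0784 and Ppm1e at 0.102. These likenesses describe 6 mice and were not tested.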

How the data were processed

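Soleus polyA RNA of 3 HET and 3 WT mice was measured, 1 stranded library per mouse. Per the labels and the submitters' processing notes, the authors aligned reads with STAR 2.7.3a to GRCm38.p6 and counted them per gene with featureCounts 2.0.3, and these raw counts were deposited. The deposited normalized signal holds the same counts divided by DESeq2 size factors (0.773 to 1.42). A deposited table of the authors' own fold changes and p-values was not used. All sample columns matched a label (0 left over). Groups came from the labeled genotype.

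Counts were tested with edgeR 4.0.16 (R 4.3.3): TMM scaling, filterByExpr with a minimum count of 10, robust quasi-likelihood fit, two-sided tests, Benjamini-Hochberg adjustment over 14696 genes, threshold 0.05. CPM used TMM-scaled library sizes. FPKM divided CPM by the exon length of the count table. The fit was tested on simulated data. Alternatives, 16 per gene, were other scalings, filters and tools (DESeq2 1.42.0, limma 3.58.1), a replicate block and each mouse left out. GENCODE M21 named 51633 of 51912 genes. The chi-square per gene between mice of the same genotype was 16.1 to 46.8, above sampling noise in every such pair.

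All 10 IGF genes are named with values. In pathway lists, genes past the threshold, genes without overlap between groups and the highest and lowest of each list are named, and in marker lists the genes past the threshold. Ccn3 and Kera are also named for their DESeq2 calls, and Gsn, Col3a1, Rgs5 and Sdc4 for their weight in a sum of markers. The 3 most similar genes are named for Igf1 and for the gene of smallest p. The genes and lists were chosen with earlier results of these data known. Counting error limits Igfbp2 most, at 45 reads in 1 library.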

Additional observations from a re-analysis of the deposited data

How the results depend on the processing

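With all mice, the direction of every one of the 10 genes was kept under each scaling, filter and tool tried, and the median log2 fold change of all genes lay between −0.02 and 0.06 under the 4 scalings. The number of genes called, 22, became 404 without a filter on low counts, 226 in DESeq2, 3 in limma-voom, 6 in edgeR without robust estimation, and 0 to 83 with 1 mouse left out, highest without WT mouse 3 and 15 without HET mouse 2. The number of IGF genes called, 0, became 2 without a filter, 2 in DESeq2 and 0 to 2 with 1 mouse left out. DESeq2 called 7 fibroblast markers against 1, 1 tenocyte marker against 0 and 1 gene with an IGFBP-type domain against 0. The causes were not tested. With 1 mouse left out, the log2 fold change ran from −0.21 to 0.34 for Igf1, −0.13 to 0.17 for Igf2, −0.19 to 0.035 for Igf1r, −0.0028 to 0.057 for Igf2r and −0.017 to 0.26 for Igfbp5, so these 5 directions rest on single mice. Shares computed from CPM instead of FPKM were, in HET and WT, 0.456% and 0.379% for Igfbp2, 8.17% and 6.48% for Igfbp4, 57.5% and 60.6% for Igfbp5, 9.24% and 5.50% for Igfbp6, and 19.2% and 19.4% for Igfbp7. This change follows from leaving exon length out. Mouse numbers are shared between genotypes, and deviations of same-numbered mice correlated at 0.203, −0.00578 and −0.0349. With 3 mice per genotype these values cannot decide whether the numbers pair mice. With the replicate block 116 genes were called, among them 1 IGF gene, Igfbp6 (log2 fold change 1.02, adjusted p = 0.0380), while Igfbp4 had an adjusted p of 0.109. Only pair 1 correlated best with its own number.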

Other observations

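At the imprinted loci, H19, the noncoding RNA that neighbors Igf2 at a distance of 72.6 kb, was at 4403 ± 206 CPM in HET and 4741 ± 226 in WT (SD, n = 3, log2 fold change −0.11, edgeR adjusted p = 0.872). Airn, which is transcribed across Igf2r on the opposite strand, was at 6.24 ± 0.850 and 6.19 ± 0.223 CPM (log2 fold change 0.02, edgeR adjusted p = 0.990). The antisense genes Igf1os and Igf2os had 2 to 14 reads per mouse each, and per the file header the counting used strand. The 5 tested genes of the list that holds H19 and Airn were overlapping between genotypes, with values from −0.14 for Slc22a2 to 0.30 for Igf2bp2, none at an unadjusted p under 0.05 in edgeR and none called by DESeq2.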
